A study of Mus musculus and Homo sapiens with 12 samples.

Results

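VARS and VARS2 encode the 2 valyl-tRNA synthetases of mammalian cells, and their transcripts were followed here through a block of NOTCH signalling in human leukaemia cells and through restriction of dietary valine in mice with leukaemia. The members were the rows named VARS and VARS2 in the human expression table, 2 of its 11513 genes, and the rows named Vars and Vars2 in the mouse table, 2 of its 10430 genes. All 4 rows were found by symbol alone, without use of their values.

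An aminoacyl-tRNA synthetase joins an amino acid to the tRNAs that carry its codons' anticodons, and a ribosome can read valine codons only while valyl-tRNA is supplied. VARS is the cytosolic enzyme, which loads the tRNAs used for proteins encoded in the nucleus, and its protein is bound to the exchange factor of the elongation factor that brings charged tRNA to the ribosome. VARS2 is the separate nuclear gene for the mitochondrial enzyme, which serves translation of the few proteins encoded by mitochondrial DNA, among them subunits of respiratory complex I.

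The human samples were KOPTK1, an established T-ALL line (leukaemia of immature T cells), given for 72 h either the gamma-secretase inhibitor Compound E (gSI), which prevents release of the active intracellular part of NOTCH receptors, or its solvent DMSO, with 2 libraries in each group. The mouse samples were GFP-positive leukaemic cells sorted from the spleens of C57BL/6 mice after 3 weeks on diets labelled as holding 0, 0.4, 0.8 or 8 g/kg valine, with 2 libraries, named TALL2 and TALL3, on each diet. The mice had received a second transplantation of tumours carrying NOTCH-delta E, a NOTCH form that all 4 diet groups shared, and 8 g/kg was the valine-sufficient control diet. The protocol text describes the 0.4 and 0.8 doses as g/L valine in the drinking water of mice on the valine-free diet, whereas the sample labels give g/kg; the labels' unit is used below. Nothing in the labels says that 2 libraries of a group came from separate cultures or animals, so the p-values measure the spread between libraries, and KOPTK1 is 1 cell line.

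Values are FPKM, fragments scaled to gene length and to the reads of the library. Whole read numbers were recovered from the steps in the FPKM values and summed to 22939478 to 42245079 reads over the listed genes of a human library and to 14222895 to 37687253 reads in a mouse library. The first DMSO library had been divided by 0.938 times its listed reads, against 1.01 to 1.07 times in the other human libraries, so its FPKM are slightly raised relative to theirs. The gSI block was visible in the data: HES1, a direct NOTCH target, had 0.0253 and 0.0431 FPKM in gSI libraries, against 6.72 and 6.18 FPKM in DMSO libraries. T lineage markers were present in every library, 11 of 12 in the human table and 12 of 12 in the mouse table, where their summed level was 3696 to 4543 FPKM.

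In the mouse, Vars (ENSMUSG00000007029) lies on chromosome 17 at 35000987 to 35016322 on the plus strand of GRCm38, with 30 exons in its longest transcript. Vars2 (ENSMUSG00000038838) lies 639.3 kb further on, at 35655634 to 35667592 on the minus strand, with 29 exons in its longest transcript. The 2 genes therefore share a chromosome region but not a promoter. The nearest listed gene to Vars2 is Gtf2h4, a subunit of transcription factor TFIIH. It lies on the same strand and ends 137 bases before the Vars2 start. The unlisted antisense gene Gm20483 overlaps the other end of Vars2. The library kit was directional, but how strand was used in counting is not given in the sources used here, so reads of Gm20483 cannot be told apart from those of Vars2. For the human genes (VARS, ENSG00000204394, and VARS2, ENSG00000137411) no coordinates were used here.

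The Vars2 promoter is shown because amino acid shortage and NOTCH signalling act on some genes through short promoter elements. RefSeq gives these 250 bases before the Vars2 start (GRCm38.p6, chr17:35667593-35667842, minus strand), written from 5′ to 3′ and wholly in lower case because none of the motifs searched was found.
Vars2: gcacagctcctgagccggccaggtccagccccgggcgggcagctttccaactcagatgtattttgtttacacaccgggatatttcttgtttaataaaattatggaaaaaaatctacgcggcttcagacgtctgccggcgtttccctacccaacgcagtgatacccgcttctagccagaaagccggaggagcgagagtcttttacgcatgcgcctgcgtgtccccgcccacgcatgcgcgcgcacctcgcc

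Its G and C content was 56.8%. The stretch from 35667730 to 35667842, the upstream end of the window, lies within the annotated span of Gtf2h4. The motifs searched on both strands were TGATGNAA, a form of the element bound by ATF4 with a C/EBP partner, CACGTG, the E-box bound by MYC, and TGGGAA, the core bound by the NOTCH partner RBPJ. TGATGNAA stood in 3.45%, CACGTG in 6.02% and TGGGAA in 21.6% of the 32851 promoters of this length in the table. Among the 13 cytosolic synthetase genes with a promoter there, TGATGNAA was found in 3 (Aars, Gars and Tars, the alanyl, glycyl and threonyl enzymes), CACGTG in 3 (Aars, Farsb and Iars) and TGGGAA in 2 (Aars and Farsb), so Aars held all 3 motifs. Among the 14 mitochondrial synthetase genes with a promoter there, Vars2 included, TGATGNAA and CACGTG were found in 0 and TGGGAA in 1, Tars2. The TGATGNAA matches in Gars and Tars are shown with their flanks, with the motif, read on the opposite strand, in capitals.
Gars (chr6:55037960-55037989, plus strand): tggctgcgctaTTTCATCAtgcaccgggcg
Tars (chr15:11399659-11399684, minus strand): caggagtcccgTTGCATCAgctggtt

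A match is a description of letters and not a bound site, and the absence of one covers this window only.

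The comparison of gSI with DMSO asks what the block of NOTCH did to the synthetases. VARS fell and its mitochondrial counterpart VARS2 rose. VARS stood at 1.13 and 1.20 FPKM in gSI libraries, against 2.07 and 2.05 FPKM in DMSO libraries. Both gSI libraries were therefore well below both DMSO libraries, and the gap was many times the difference within either group. Of the 6679 tested genes 42.4% had both gSI libraries below both DMSO libraries, by any margin, and 33.9% had both above. The means were 1.17 ± 0.0543 FPKM in gSI cells and 2.06 ± 0.0139 FPKM in DMSO cells (SD, n = 2 each), a ratio of 0.567. As a difference of log2(FPKM + 1), a scale that shrinks the changes of low genes, this was -0.50 (SE 0.0622, 95% interval -0.62 to -0.37; limma, Benjamini-Hochberg adjusted p = 1.9e-07).

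VARS2 stood at 2.20 and 2.18 FPKM in gSI libraries, against 1.77 and 1.91 FPKM in DMSO libraries. Both gSI libraries were above both DMSO libraries, but the step was small, and the DMSO libraries were spread further apart than those of gSI. The means were 2.19 ± 0.0133 FPKM in gSI cells and 1.84 ± 0.0993 FPKM in DMSO cells (SD, n = 2 each), a ratio of 1.19. The difference of log2(FPKM + 1) was 0.17 (SE 0.0673, 95% interval 0.03 to 0.30; limma, Benjamini-Hochberg adjusted p = 0.0392). This call was not firm: the adjusted p was 0.102 without DMSO replicate 1, 0.242 without gSI replicate 1, 0.228 without gSI replicate 2 and 0.0629 when genes under a mean of 1 FPKM were kept.

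**Figure D1:**
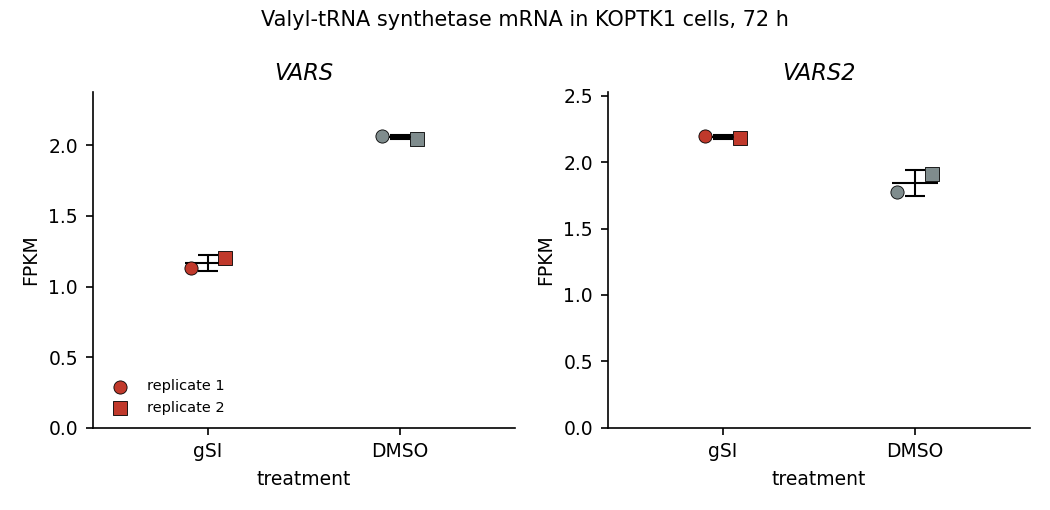
FPKM of VARS (left) and VARS2 (right) in KOPTK1 libraries after 72 h of gSI or DMSO. Points are single libraries (circle, replicate 1; square, replicate 2), bars the mean ± SD, and both vertical axes start at 0. VARS is lower in both gSI libraries (1.13 and 1.20) than in both DMSO libraries (2.07 and 2.05), and VARS2 is slightly higher in them.

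The read numbers behind these values were 636 and 995 for VARS in gSI libraries, against 820 and 967 in DMSO libraries. For VARS2 they were 1225 and 1779 in gSI libraries, against 695 and 893 in DMSO libraries. Counting error was small beside the VARS difference, since the exact 95% Poisson intervals ran from 1.04 to 1.28 FPKM over the gSI libraries and from 1.92 to 2.21 FPKM over the DMSO libraries. For VARS2 the same intervals ran from 2.08 to 2.33 FPKM in gSI libraries, against 1.64 to 2.04 FPKM in DMSO libraries, so they came close without touching. Divided by the reads of the listed genes instead of the deposited divisor, VARS stood at 22.3 and 23.6 RPM (reads scaled to the listed reads) in gSI libraries, against 35.7 and 38.2 in DMSO libraries. VARS2 then stood at 42.9 and 42.1 RPM in gSI libraries, against 30.3 and 35.3 in DMSO libraries. Both differences kept their direction on that scale.

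The size of the log2 difference depended on the scale. With a pseudocount of 0.1 in place of 1 it was -0.77 for VARS and 0.24 for VARS2, and with a pseudocount of 5 it was -0.19 for VARS and 0.071 for VARS2. With limma-voom on the recovered reads, where the median over all tested genes was 0.086 against -0.031 on the FPKM scale, VARS was at -0.69 and VARS2 at 0.37. Relative to those medians VARS was at -0.77 by limma-voom and at -0.47 on the FPKM scale. VARS2 was at 0.29 by limma-voom and at 0.20 on the FPKM scale. In bulk samples such as these, less RNA per cell and fewer cells of a type cannot be told apart.

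Calls were common in this comparison, since 53.1% of the 6679 tested genes passed the threshold, 22.8% higher and 30.3% lower in gSI cells. Of those 3547 genes 1524 were higher, whereas limma-voom on the recovered reads called 4299 genes, 2671 of them higher. VARS stood at rank 429 by p, and 6.93% of tested genes had a lower log2 difference than VARS. VARS2 was nearer to the middle, with 77.0% of tested genes below it. Over the 4 libraries the coefficient of variation was 32.0% for VARS, higher than that of 93.1% of tested genes, and 10.3% for VARS2, where the median over tested genes was 11.7%.

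Because both genes are scaled within a library by the same divisor, the ratio of VARS to VARS2 is free of library scaling. The lengths recovered from the FPKM values were close for this pair, 18435 bases for VARS and 18217 bases for VARS2. They are far longer than the mouse transcripts (4137 and 4425 bases), so these FPKM are not levels per transcript length and do not rank the pair. Which reads were counted over such lengths is not stated. Reads from outside the exons, if counted, cannot be told apart from those of the transcripts. Both lengths also exceed the spans of the mouse genes from end to end, 15336 bases for Vars and 11959 for Vars2. In the mouse, Gtf2h4 lies close to Vars2 on the same strand. No human coordinates were used, so whether reads of a neighbouring gene enter the VARS2 values and the ratio was not tested. The ratio was 0.513 and 0.553 in gSI libraries, against 1.17 and 1.07 in DMSO libraries. The ratio was thus lower in both gSI libraries than in both DMSO libraries, by more than the difference within either group. The mean log2 ratio differed by -1.07 (exact permutation test, two-sided, p = 0.333, n = 2 each), and 0.333 is the smallest p that 2 libraries against 2 can give.

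**Figure D2:**
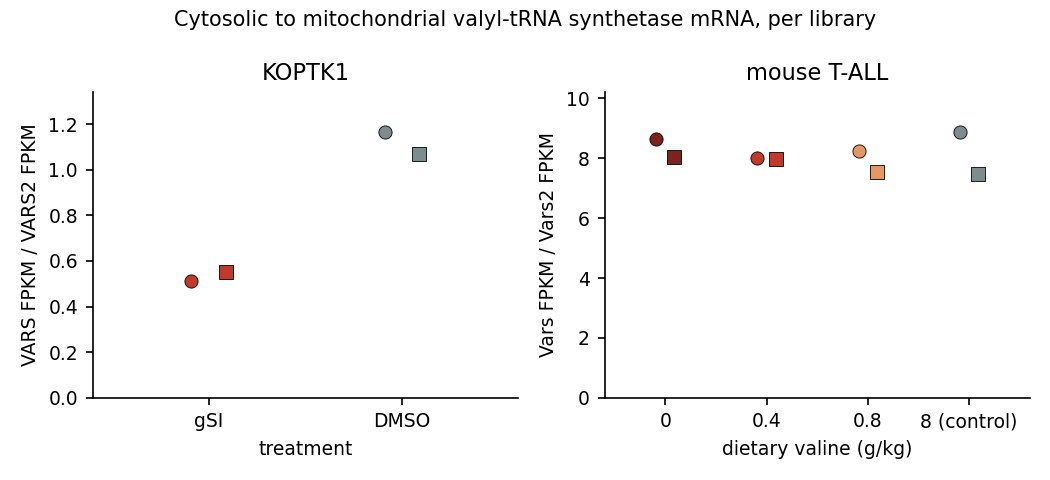
Ratio of VARS FPKM to VARS2 FPKM in each KOPTK1 library (left) and of Vars FPKM to Vars2 FPKM in each mouse library (right), with vertical axes starting at 0. Circles are replicate 1 or TALL2 and squares replicate 2 or TALL3. The human ratio is 0.513 and 0.553 with gSI, against 1.17 and 1.07 with DMSO, while the mouse ratio lies between 7.46 and 8.88 on all 4 diets; the tables were normalised separately, so the ratios are not compared between species.

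Most cytosolic synthetases moved with VARS. Of the 21 listed, 19 were tested, and 14 fell, 1 rose and 4 did not pass the threshold (limma, Benjamini-Hochberg over all tested genes). VARS itself is counted among the 19 and among the 14. Over all tested genes 30.3% fell and 22.8% rose. The median log2 difference of the 19 was -0.40 against -0.031 over all tested genes. YARS (tyrosyl) was at -0.66, DARS (aspartyl) at -0.56, GARS (glycyl) at -0.56, LARS (leucyl) at -0.52, KARS (lysyl) at -0.50 and TARS (threonyl) at -0.50, and VARS came next. By the plain ratio of mean FPKM, VARS at 0.567 was second only to DARS at 0.556 among the 19. WARS, the tryptophanyl enzyme, was the gene that rose, at 1.21 and 1.26 FPKM in gSI libraries, against 0.967 and 1.03 FPKM in DMSO libraries. Its DMSO libraries lay at the filter of 1 FPKM, so its gSI values helped it to be tested at all. The WARS call was not firm either, with an adjusted p of 0.0543 by limma with no variance trend (Benjamini-Hochberg).

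VARS2 had the highest log2 difference of the 7 mitochondrial synthetases tested, out of 15 listed. Of the 7, 3 rose and 0 fell, where 22.8% of all tested genes rose and 30.3% fell. The other risers were TARS2 (threonyl, 0.15, adjusted p = 0.0445 by limma with Benjamini-Hochberg adjustment) and PARS2 (prolyl, 0.15, adjusted p = 0.0350). These 3 calls lie close to the threshold, and leaving out either gSI library ended all of them. The median over the 7 was 0.13. With no filter on low values all 15 listed genes were tested, of which 1 rose and 1 fell, and their median was 0.025.

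**Figure D3:**
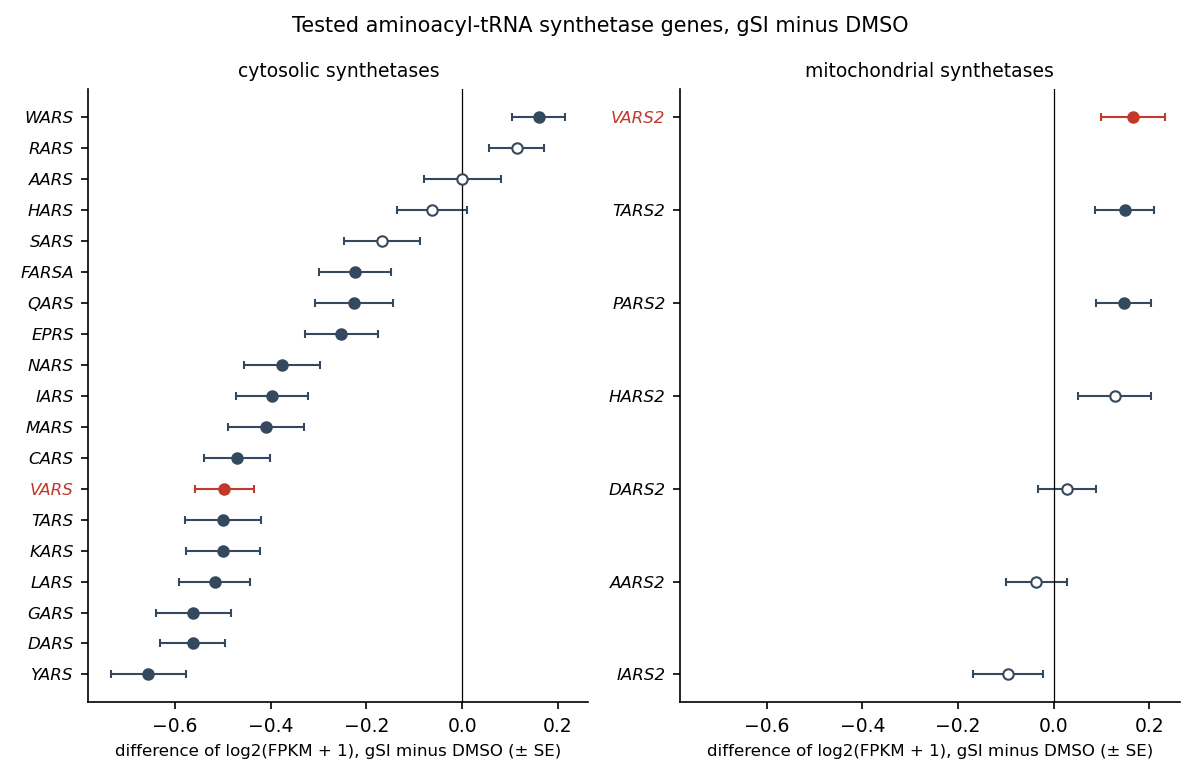
Difference of log2(FPKM + 1), gSI minus DMSO, with its SE, for the 19 tested cytosolic (left) and 7 tested mitochondrial (right) synthetase genes; filled points passed an adjusted p of 0.05 and VARS and VARS2 are in red. Of the cytosolic genes 14 lie below 0 and passed, VARS at -0.50 among them, and VARS2 at 0.17 tops the mitochondrial genes.

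The enzymes for the other branched-chain amino acids followed their compartments in part. LARS had 2.48 and 2.49 FPKM in gSI libraries, against 4.16 and 3.82 FPKM in DMSO libraries. IARS, the cytosolic isoleucyl enzyme, had 3.37 and 3.37 FPKM in gSI libraries, against 4.93 and 4.58 FPKM in DMSO libraries. All 3 cytosolic branched-chain enzymes therefore fell. The mitochondrial isoleucyl enzyme IARS2 had a difference of -0.10 that did not pass (limma, Benjamini-Hochberg adjusted p = 0.279), so its direction was not that of VARS2, and LARS2 was below the level tested.

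Partners of the enzymes were mixed in size but not in sign among those that passed. Of 5 tested scaffold and elongation factor genes 3 fell: EEF1B2 (-0.84), a subunit of the exchange factor that VARS protein binds, EEF1A1 (-0.56), which carries charged tRNA to the ribosome, and AIMP1 (-0.29), a scaffold of the multi-synthetase complex. EEF1D, another subunit of that exchange factor, was at 0.13 (adjusted p = 0.194 by limma with Benjamini-Hochberg adjustment). Of 11 tested genes of tRNA supply, MAF1 (0.32), the repressor of RNA polymerase III, rose and 3 fell, with the tRNA exporter XPOT lowest at -0.43. The tRNA supply counts were near or under the shares over all tested genes, 22.8% higher and 30.3% lower. The count of 3 fallen among 5 partners was above the 30.3% share.

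Of 11 tested genes that bring in or break down valine, 2 rose and 3 fell, shares near those over all tested genes (22.8% higher, 30.3% lower). SLC3A2 (0.59), a chain of the transporter of large neutral amino acids, rose furthest, and BCAT1 (-0.53), the cytosolic transaminase of branched-chain amino acids, fell furthest. Of 14 tested genes of the amino acid shortage response, 7 rose and 3 fell, with the transcription factor ATF5 highest at 1.16 and the serine synthesis enzyme PSAT1 lowest at -0.36.

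MYC, a transcription factor downstream of NOTCH1 in T-ALL, fell to 4.75 and 4.75 FPKM in gSI libraries, against 17.2 and 16.1 FPKM in DMSO libraries. All 5 tested NOTCH targets fell, where 30.3% of all tested genes did. T lineage markers moved with the treatment too, since 10 of 11 fell and their summed level was 234 and 248 FPKM in gSI libraries, against 409 and 395 FPKM in DMSO libraries; their part in the VARS and VARS2 differences was not tested. None of the 11 neutrophil or 8 macrophage markers was listed in the human table, where Ngp and Lyz2, which are mouse genes only, could not be.

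The 3 genes whose centred profiles over the 4 libraries were closest to that of VARS were ALDOA (root mean square distance 0.0123 on the log2 scale), RPS12 (0.0128) and LDHB (0.0143), which encode the glycolytic enzyme aldolase A, a ribosomal protein and a lactate dehydrogenase subunit. For VARS2 they were NDUFA2 (0.00515), a subunit of respiratory complex I, BTBD2 (0.00570) and ENSG00000182500 (0.00853). With 4 libraries in 2 groups, many genes can have a profile this close.

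In the mice the comparison asks whether the supply of valine changed the transcripts of the enzymes that use it. Vars was high and nearly flat across the 4 diets. It stood at 161 and 158 FPKM on 0 g/kg, 159 and 149 FPKM on 0.4 g/kg, 145 and 160 FPKM on 0.8 g/kg and 149 and 146 FPKM on 8 g/kg valine. The 2 libraries without valine lay above both control libraries by a small margin, whereas the lowest library of all 8 was one of those on 0.8 g/kg. The means were 160 ± 2.15, 154 ± 6.49, 152 ± 10.5 and 148 ± 2.55 FPKM on 0, 0.4, 0.8 and 8 g/kg (SD, n = 2 each).

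The difference of log2(FPKM + 1) from the control diet was 0.11 on 0 g/kg (SE 0.0822, 95% interval -0.09 to 0.31; limma, Benjamini-Hochberg adjusted p = 0.661). It was 0.061 on 0.4 g/kg (95% interval -0.14 to 0.26, adjusted p = 0.839) and 0.044 on 0.8 g/kg (95% interval -0.16 to 0.24, adjusted p = 0.998). The moderated F test over the 4 diets gave an adjusted p of 0.985. As ratios, the interval for 0 g/kg spans 0.941 to 1.24, so these libraries do not exclude a rise of that size. The 3 comparisons share the same 2 control libraries.

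Vars2 stood at 18.6 and 19.6 FPKM on 0 g/kg, 19.8 and 18.7 FPKM on 0.4 g/kg, 17.6 and 21.1 FPKM on 0.8 g/kg and 16.8 and 19.5 FPKM on 8 g/kg. The groups overlapped on every diet. The means were 19.1 ± 0.704, 19.2 ± 0.776, 19.4 ± 2.51 and 18.2 ± 1.92 FPKM on 0, 0.4, 0.8 and 8 g/kg (SD, n = 2 each). The differences from the control diet were 0.073, 0.081 and 0.085 on 0, 0.4 and 0.8 g/kg (SE 0.122 each), with 95% intervals from -0.22 to 0.37, -0.22 to 0.38 and -0.21 to 0.38 and limma's Benjamini-Hochberg adjusted p of 0.872, 0.854 and 0.998. Without the TALL2 control library, the lowest of the 8, these differences were -0.029, -0.021 and -0.017.

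**Figure D4:**
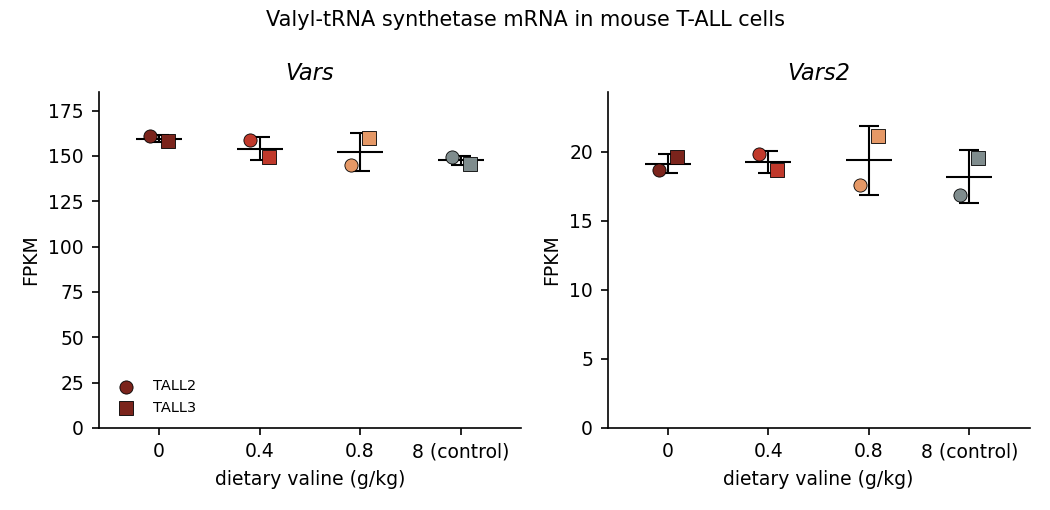
FPKM of Vars (left) and Vars2 (right) in sorted mouse T-ALL cells by dietary valine in g/kg, from 0 to the control diet at 8. Points are single libraries (circle, TALL2; square, TALL3), bars the mean ± SD, and both vertical axes start at 0. Vars stays between 145 and 161 FPKM and Vars2 between 16.8 and 21.1 FPKM.

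No tested gene passed the threshold on any diet (0.0% of 9943 called for 0, 0.4 or 0.8 g/kg by limma, and 0 by limma-voom), so the absence of a call for Vars and Vars2 carries little by itself. At an unadjusted p under 0.05 there were 1025 genes (10.3%) on 0 g/kg, 1059 (10.7%) on 0.4 g/kg and 433 (4.35%) on 0.8 g/kg, Vars and Vars2 not among them. The steadiness of Vars can instead be read from its spread. Its coefficient of variation over the 8 libraries was 4.35%, and 2.41% of tested genes had a lower one, where the median was 12.6%. That of Vars2 was 7.13%, with 15.8% of tested genes lower. Vars was also an abundant transcript, at a mean level higher than that of 96.9% of tested genes, while the level of Vars2 was higher than that of 58.4%. High counts lower this measure, and Vars was covered by 9455 to 25965 reads a library, against 1256 to 3467 for Vars2.

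Per length, Vars was the second most abundant of the 21 cytosolic synthetase transcripts, with a mean of 153 ± 6.67 FPKM over the 8 libraries (SD) behind Kars (lysyl) at 189 ± 12.9 FPKM and ahead of Gars at 139 ± 22.8 FPKM and Dars at 136 ± 14.9 FPKM. The ranges of Gars and Dars overlapped with that of Vars, so that part of the order is not firm. Vars2 was sixth of the 16 listed mitochondrial synthetases, at 19.0 ± 1.35 FPKM, after Lars2, Iars2, Tars2, Rars2 and Sars2 and ahead of Fars2 at 13.8 ± 1.03 FPKM. Its range overlapped with those of Tars2, Rars2 and Sars2, so its place among them is not firm. The ratio of Vars to Vars2 was 8.65 and 8.05 on 0 g/kg, 8.01 and 7.99 on 0.4 g/kg, 8.23 and 7.56 on 0.8 g/kg and 8.88 and 7.46 on 8 g/kg. The control libraries held both the highest and the lowest ratio, and the diets did not differ in it beyond the spread (exact permutation test of F over 2520 assignments, p = 0.924, n = 2 each). With the human ratio this made 2 tests, and the Benjamini-Hochberg adjusted p over both was 0.667 for the human and 0.924 for the mouse ratio (exact permutation).

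Around Vars, many cytosolic synthetases were higher without valine. On 0 g/kg, 12 of 21 had both libraries above both control libraries, 3 had both below and 6 overlapped, where 19.1% of all tested genes were above and 22.9% below, and the median log2 difference was 0.19 against -0.013 over all tested genes. None passed limma's adjusted threshold. Cars, the cysteinyl enzyme, had 30.4 and 36.1 FPKM on 0 g/kg, against 11.7 and 16.4 FPKM on 8 g/kg. Sars, the seryl enzyme, had 81.6 and 85.4 FPKM on 0 g/kg, against 48.4 and 47.6 FPKM on 8 g/kg. Aars, the alanyl enzyme, had 50.9 and 63.4 FPKM on 0 g/kg, against 29.8 and 30.7 FPKM on 8 g/kg. Vars was among the 12, but with its ratio of 1.08 it stood thirteenth of 21 by log2 difference, under the list's median.

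**Figure D5:**
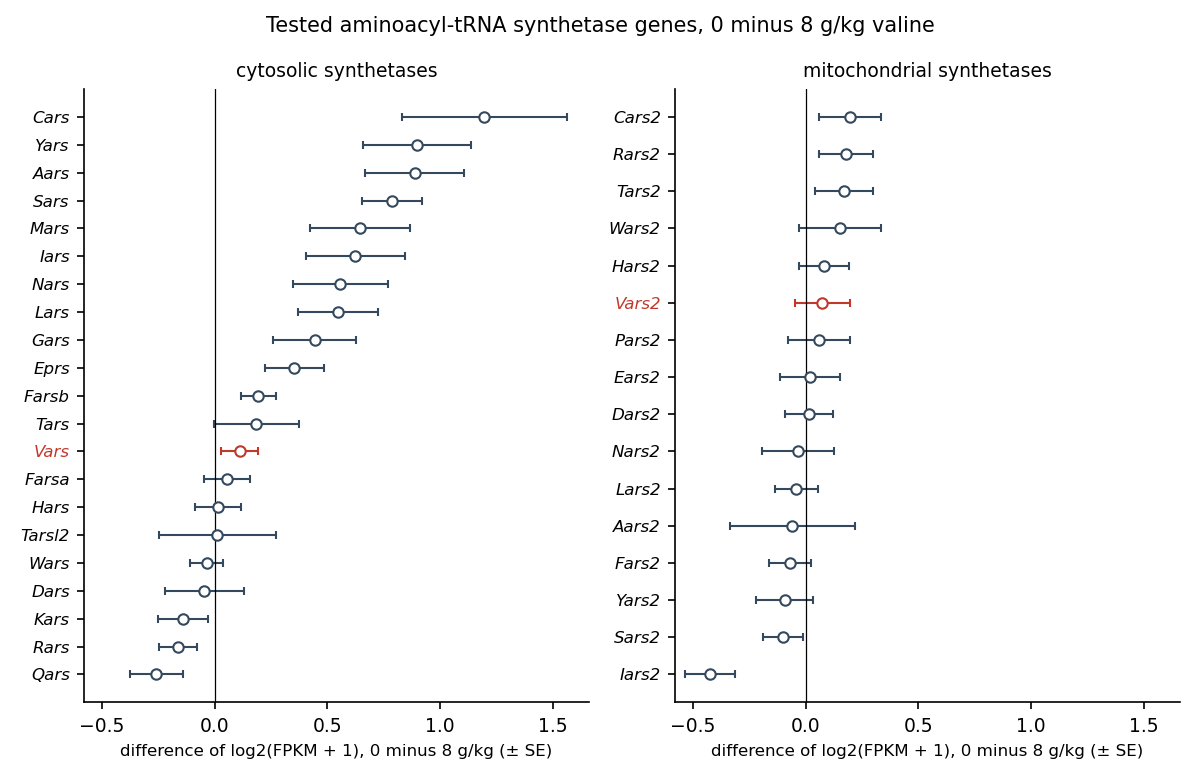
Difference of log2(FPKM + 1), 0 minus 8 g/kg valine, with its SE, for the 21 cytosolic (left) and 16 mitochondrial (right) synthetase genes tested in the mouse; no point passed an adjusted p of 0.05, so all are open, and Vars and Vars2 are in red. Cars lies highest at 1.20, Vars is at 0.11 and Vars2 at 0.073, and Iars2 lies lowest at -0.42.

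The enzymes for the other branched-chain amino acids differed more between diets than Vars did. Iars had 55.5 and 56.9 FPKM on 0 g/kg, 68.8 and 54.8 FPKM on 0.4 g/kg, 38.5 and 60.9 FPKM on 0.8 g/kg and 34.5 and 37.7 FPKM on 8 g/kg. Lars had 57.2 and 55.6 FPKM on 0 g/kg, 56.9 and 45.5 FPKM on 0.4 g/kg, 39.9 and 56.0 FPKM on 0.8 g/kg and 37.5 and 39.1 FPKM on 8 g/kg. Every restricted library was thus above both control libraries for Iars and for Lars. The differences for 0 g/kg were 0.63 (SE 0.221) for Iars and 0.55 (SE 0.177) for Lars, with adjusted p of 0.440 and 0.415 by limma with Benjamini-Hochberg adjustment; that they exceed the difference of Vars was not tested. In the mitochondrial set Iars2 was lower, at 37.1 and 32.2 FPKM on 0 g/kg, 36.0 and 32.6 FPKM on 0.4 g/kg, 36.5 and 35.9 FPKM on 0.8 g/kg and 49.8 and 43.7 FPKM on 8 g/kg.

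The share of Vars in the summed cytosolic synthetase level was smaller in most restricted libraries than in the controls. The share was 9.47% and 9.67% on 0 g/kg, 9.21% and 9.51% on 0.4 g/kg, 10.6% and 9.45% on 0.8 g/kg and 10.7% and 10.2% on 8 g/kg. The TALL2 library on 0.8 g/kg lay among the controls in this share and the other 5 restricted libraries lay below them. That library also had 5.59 FPKM of Asns, asparagine synthetase, against 47.5 FPKM in the TALL3 library on the same diet. Asns was at 69.2 and 84.6 FPKM on 0 g/kg, 47.3 and 17.1 FPKM on 0.4 g/kg and 2.02 and 2.90 FPKM on 8 g/kg, so the 2 libraries on 0.8 g/kg stood apart from each other in this marker of amino acid shortage.

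On 0.4 g/kg, 13 cytosolic synthetases had both libraries above both controls and 2 below, where 16.9% of tested genes were above and 31.8% below, and the median difference was 0.24. Vars was above them by a narrow margin, since its TALL3 library on 0.4 g/kg and the TALL2 control library were both at 149 FPKM to 3 digits. On 0.8 g/kg, 5 were above and 2 below, where 10.6% of tested genes were above and 22.5% below, and the median was 0.15. Vars overlapped with the controls there. Of the 16 mitochondrial synthetases, 2 were above and 2 below on 0 g/kg, 3 above and 4 below on 0.4 g/kg and 2 above and 5 below on 0.8 g/kg, with medians of 0.017, 0.017 and -0.012, and Vars2 overlapped with the controls on each diet.

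Against the 19.1% of all tested genes above and 22.9% below both controls on 0 g/kg, genes upstream and downstream of the enzymes stood as follows. Of 11 listed genes of the amino acid shortage response, 9 had both 0 g/kg libraries above both controls. Bcat1 had 8.82 and 7.60 FPKM on 0 g/kg, against 3.24 and 2.17 FPKM on 8 g/kg, and was the highest by log2 difference of 18 genes of valine uptake and breakdown, of which 6 were above and 5 below, the count below being near the share over all genes. Bckdha, a subunit of the complex that commits branched-chain keto acids to breakdown, was the lowest at -0.40. Of 20 genes of tRNA supply, 12 were below both controls and 1 above, with Polr3f, a subunit of RNA polymerase III, lowest at -0.38 and Xpot highest at 0.34. Myc had 161 and 112 FPKM on 0 g/kg, against 267 and 222 FPKM on 8 g/kg. None of these genes passed limma's adjusted threshold.

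The 3 genes with the highest Pearson r to Vars over the 8 libraries were Clic4 (0.97), Gars (0.97) and Eprs (0.95), a chloride channel protein and the glycyl and glutamyl-prolyl enzymes. For Vars2 they were B230323A14Rik (0.99), Kat2b (0.98), a histone acetyltransferase, and Cdc16 (0.98), a subunit of the anaphase-promoting complex. Between Vars and Vars2 r was 0.56. The likest genes were picked from 9943 and pairs of libraries share a diet, so these are descriptions. Gars moved further than Vars while following it in order, with 161 and 155 FPKM on 0 g/kg, against 115 and 116 FPKM on 8 g/kg.

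Transcripts that mark other blood cells differed between diets in these GFP-sorted samples. The summed level of 11 neutrophil markers was 535 and 322 FPKM on 0 g/kg, 12.2 and 73.4 FPKM on 0.4 g/kg, 13.1 and 12.0 FPKM on 0.8 g/kg and 0.949 and 10.3 FPKM on 8 g/kg. That of the 8 erythroid markers listed of 11 was 53.3 and 53.3 FPKM on 0 g/kg, 107 and 99.7 FPKM on 0.4 g/kg, 93.8 and 68.7 FPKM on 0.8 g/kg and 171 and 300 FPKM on 8 g/kg. The 0 g/kg libraries were thus the highest in neutrophil markers and the lowest in erythroid ones. Their part in the values of Vars, Vars2 and the other synthetases was not tested.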

How the data were processed

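RNA of 12 libraries (4 human, 8 mouse) was made into sequencing libraries with a directional kit, per the labels' protocols. STAR, edgeR, hg19 and mm10 are named in the submitters' processing notes, which name no version, gene model or use of strand in counting. The deposited tables hold FPKM values per gene, 1 table per species, normalised separately by the authors. All tests were made here.

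Members and gene lists were chosen with earlier results of these data known. The limma test (version 3.58.1, R 4.3.3, two-sided, prior variance following the mean) ran on log2(FPKM + 1) of the 6679 human and 9943 mouse genes whose mean reached 1 FPKM, with Benjamini-Hochberg adjustment over all of them and a threshold of 0.05. All 4 member rows passed that filter, with VARS above 1 FPKM in each library. The 8 mouse libraries shared 1 fit. Genes that passed are said to have risen or fallen. Ratios were tested by exact permutation (scipy 1.17.1). Genes named beside the members were synthetases, the highest and lowest gene of each other list on gSI or 0 g/kg, MYC, HES1 and ASNS, and the 3 likest genes; EEF1A1 and human AIMP1 were named after their values were seen. Lists were not tested as sets.

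Reads were recovered because the FPKM of a gene are whole multiples of what 1 read is worth. The length so implied came out whole within 0.01 bases at once for most genes (human 95.8%, mouse 99.9%); the rest were multiplied up. The lengths had a median of 29957 bases in the human table and 3180 in the mouse table, where Vars (4137) and Vars2 (4425) matched a GENCODE vM21 transcript each. Human levels are therefore not compared between genes; the VARS to VARS2 ratio is compared between libraries only. Intervals from reads cover counting error only. Replicate libraries differed by 5.73 to 93.4 times the sampling noise (chi-square over degrees of freedom), so none was a copy. What TALL2 and TALL3 mark is not stated, and they were not used as pairs, because the rule asked for a correlation of deviations over 0.1 in every pair of diets. It was 0.743 for 0.8 with 8 g/kg, 0.566 for 0 with 8, 0.425 for 0 with 0.4 and 0.363 for 0 with 0.8, but 0.059 for 0.4 with 8 and -0.17 for 0.4 with 0.8. For human gSI with DMSO libraries this correlation was 0.258, over 0.1, yet the main human fit had no replicate term either. A replicate block was tried as an alternative for both species. The alternatives tried were other pseudocounts (0.1 and 5), filters, scalings and variance models, a replicate block, limma-voom on recovered reads and leaving out each library.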

Additional observations from a re-analysis of the deposited data

How the results depend on the processing

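VARS kept its fall with gSI in all 12 alternatives that gave a value (-0.77 to -0.19), and leaving out 1 library gave -0.52 to -0.47. VARS2 stayed higher in all 12, but its call was lost with no filter on low values (0.17, adjusted p = 0.0629) and in 3 of 4 fits that left out 1 library (0.13 to 0.20 over all 4). A filter at a mean of 5 FPKM removed both human genes and gave no value. Leaving out 1 library turned the sign of Vars2 on 0 g/kg (-0.029 to 0.18), 0.4 g/kg (-0.021 to 0.18) and 0.8 g/kg (-0.041 to 0.21) and of Vars on 0.8 g/kg (-0.026 to 0.11), all far from the threshold; the cause was not tested. The VARS to VARS2 log2 ratio difference was -0.66 with 1 FPKM added to both and -1.13 to -1.01 with 1 library left out, and F for the mouse ratio was 0.0541 to 1.79.

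With a replicate block, VARS was at -0.50 (limma, adjusted p = 2.7e-13) and VARS2 at 0.17 (0.0317); no call changed among the members, 3705 human genes were called and 0 mouse genes on any diet. Calls numbered 3547 in the human table, against 5374 with no filter, 1139 with a mean of at least 5 FPKM and 2226 without gSI replicate 2. Of the 3547, 1524 were higher, against 2671 of 4299 by limma-voom and 1981 of 3833 with quantile scaling. With all libraries kept, cytosolic synthetases that fell numbered 14 of 19 in the main fit and 8 of the 10 that the stricter filter left. They numbered 12 with quantile scaling or limma-voom, 15 with no variance trend and 15 of 21 with no filter. Mitochondrial ones that rose then numbered 1 to 5.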
